A study of Arabidopsis thaliana with 4 samples.

Results

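The genes described here encode the SWEET sugar facilitators and the cell wall invertase relative cwINV6 of *Arabidopsis thaliana*. Members were sought by symbol among the 13356 genes that have a probe set assigned to 1 gene in the platform annotation. The symbols were SWEET, SUC, STP or cwINV followed by a number, with or without a leading AT. This gave 15 genes, of which 14 are SWEET genes and 1 is cwINV6. No probe set assigned to 1 gene carries a SUC or STP symbol in that table, so neither family has a member by this rule. Loci entered under STP by hand, which the tables give without a symbol, are kept apart from the members in the closing section. All 15 genes were found in the TAIR10.1 gene table by gene identifier, and each has 1 such probe set. No sequence of these genes was used here.

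The samples were 4 Affymetrix arrays of Col-0 seedlings, 2 per line. The control line carried the 35S-GVG transgene, in which the 35S promoter drives GVG, an activator that dexamethasone switches on. The RKD4-induced line carried 35S-GVG together with UAS-RKD4, so the steroid turns on RKD4, an RWP-RK transcription factor of the early embryo. Both lines were moved to 1 µM dexamethasone on day 2 after germination and stayed there for 24 h until day 3, and each array read RNA of a separate pool of 60 seedlings. Every group, controls included, therefore carried GVG and received the steroid, and without an untreated array an effect of RKD4 and any other difference between the lines cannot be told apart. No probe set in the tables used is assigned to RKD4, so its induction was not checked.

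SWEET proteins are uniporters that let sugar pass a membrane down its gradient. Clade I and clade II members move mainly hexoses, clade III members move mainly sucrose and serve its export towards the phloem, seeds and nectar, and clade IV members sit in the vacuolar membrane and move fructose. Cell wall invertases split sucrose outside the cell into glucose and fructose, which hexose carriers then take up, but some proteins of this family cut fructans instead. In young seedlings these proteins act in the supply of sugar to roots and growing tips and in the filling and emptying of the vacuole.

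Of the 15 genes, cwINV6 and SWEET8 were higher in RKD4-induced seedlings and SWEET2, SWEET11, SWEET14 and SWEET16 were lower. Each passed an adjusted p of 0.05 in limma, a linear model with moderated variances fitted to all 22746 probe sets. The other 9 genes did not pass. Among all probe sets 10% were called higher and 11.8% lower, or 21.8% in either direction. Changes are given as log2 changes of RKD4-induced over control ± SE on the log2(signal + 32.4) scale, with n = 2 arrays per group. The added 32.4, the 25th percentile of all values, makes changes of weak genes look smaller. The median log2 change was -0.21 over the 14 SWEET genes and -0.0757 over all probe sets. Of the 14, 12 lay below 0, as did 13275 of the 22746 probe sets. The groups did not overlap in 7 of the 15 genes, against 61.4% of all probe sets.

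By signal the genes formed 2 sets. On all 4 arrays 8 genes read above the pseudocount, between 46.4 and 2584, and these were SWEET1, SWEET2, SWEET11, SWEET13, SWEET14, SWEET16, SWEET17 and cwINV6. The other 7 read under it on at least 1 array, between 0.687 and 106. SEs ran from 0.11 to 0.22 in the first set and from 0.25 to 0.43 in the second, so smaller changes could be told from the spread in the first.

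**Figure D1:**
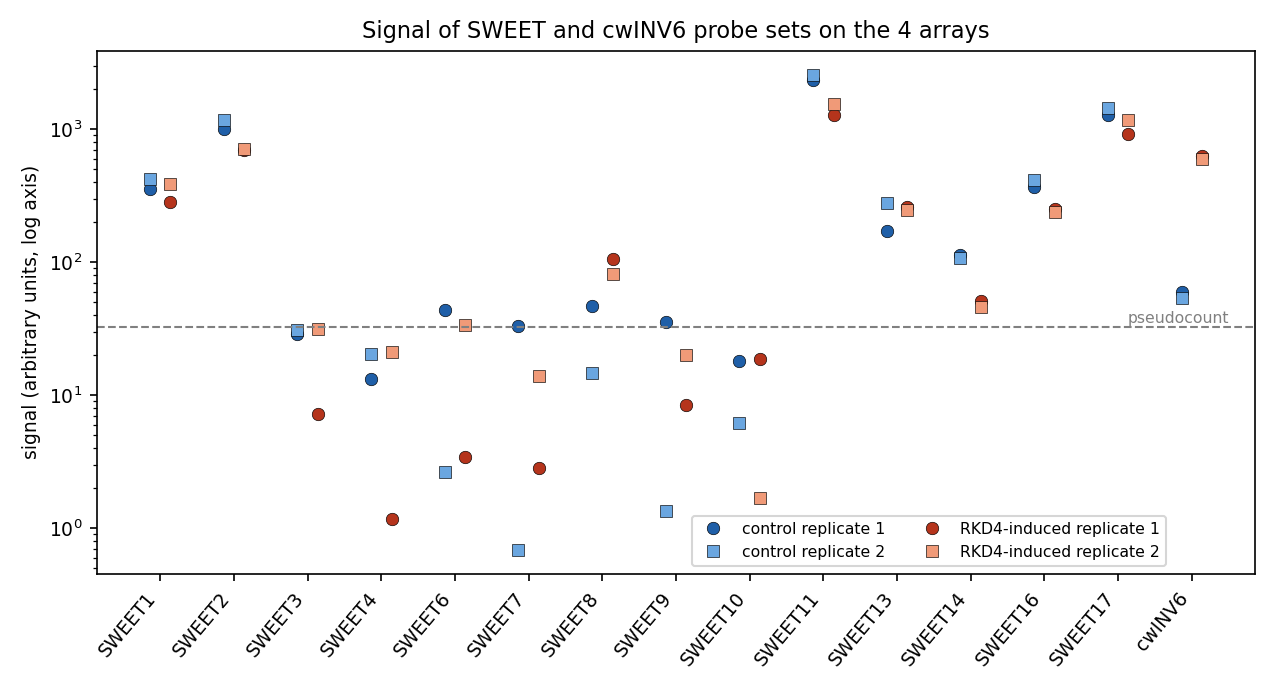
Signal of each gene's probe set (log axis, arbitrary units) on the 2 control arrays (blue) and the 2 RKD4-induced arrays (red), with the pseudocount of 32.4 as a dashed line. The cwINV6 points of the groups lie far apart, those of SWEET2, SWEET11, SWEET14 and SWEET16 lie lower in induced seedlings, and the weak SWEET genes scatter within each group. Levels of different probe sets cannot be compared with each other.

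The invertase family was represented by cwINV6 (AT5G11920), which the reference table also names 6-&1-fructan exohydrolase, an enzyme that cuts fructans. Its signal was 59.7 and 54.2 on the control arrays and 626 and 595 on the induced arrays. Both control pools were low and both induced pools high, and the arrays within a group lay close together. It rose by 2.85 ± 0.14 (95% interval 2.50 to 3.20, adjusted p = 0.000261, limma). On the signal scale the means were 57.0 ± 3.90 (SD) and 610 ± 21.5, a 10.7-fold difference, and any induced array was between 9.97-fold and 11.5-fold above any control array. Only 0.361% of all probe sets had a larger log2 change. The call held under all 12 other settings tried, including the removal of any single array, where the log2 change lay between 2.80 and 2.89.

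Among the clade I and clade II genes, SWEET8 rose and SWEET2 fell. SWEET8 (AT5G40260), also named RUPTURED POLLEN GRAIN 1, is a glucose facilitator of the anther that developing pollen needs. It read 46.9 and 14.8 in control and 106 and 81.0 in induced seedlings. The groups did not overlap, but 1 control pool lay under the pseudocount and the control pools differed by more than the induced pools. It rose by 1.03 ± 0.29 (95% interval 0.34 to 1.73) with an adjusted p of 0.0499 in limma, just under the threshold. The call was lost under 7 of 12 other settings, with an adjusted p between 0.0105 and 0.222 over all of them. Without control replicate 2, the lower control pool, the log2 change was 0.66 with an adjusted p of 0.159, and without RKD4-induced replicate 1 or 2 the adjusted p was 0.222 or 0.138. With pseudocounts at the 10th percentile and of 1 the log2 change was 1.59 and 1.76, with adjusted p of 0.0607 and 0.0613. The 1 measured locus of 3 in a list of pollen genes read under the pseudocount on all 4 arrays, between 1.85 and 15.3. Its change of -0.29 ± 0.16 did not pass (adjusted p = 0.259, limma). The groups of that locus did not overlap, with the control arrays higher, but neither did those of 61.4% of all probe sets. AtVEX1, a gene named for pollen and described below, read higher on the induced arrays and did not pass either.

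SWEET2 (AT3G14770), a clade I protein of the vacuolar membrane that retains sugar in root cells, read 1001 and 1166 in control and 704 and 706 in induced seedlings. Both induced pools lay below both control pools. It fell by 0.59 ± 0.11 (95% interval -0.87 to -0.32, adjusted p = 0.0158, limma), to 65.1% of the control mean signal. The change of SWEET1 (AT1G21460), a glucose facilitator of the plasma membrane, was -0.21 ± 0.18 (95% interval -0.64 to 0.22), and its groups overlapped, with 357 and 420 against 282 and 386. SWEET1 therefore did not pass, and its interval still includes a fall as large as that of SWEET2. With single arrays left out its change lay between -0.42 and -0.00653.

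SWEET3, SWEET4, SWEET6 and SWEET7, the other hexose-type members measured, read between 0.687 and 43.9. SWEET4 is a hexose facilitator of leaf veins and roots. Their log2 changes lay at -0.31 ± 0.25, -0.21 ± 0.25, -0.09 ± 0.43 and -0.20 ± 0.34, and none passed. The groups overlapped in all 4 genes. No array of SWEET3 or SWEET4 reached the pseudocount, so these values say little on change.

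In clade III, SWEET11 and SWEET14 fell. SWEET11 (AT3G48740), which exports sucrose from leaf cells for loading into the phloem, read 2345 and 2584 in control and 1271 and 1542 in induced seedlings. The induced pools were both lower than the control pools by more than the pools of a group differed. It fell by 0.80 ± 0.13 (95% interval -1.11 to -0.49, adjusted p = 0.00796, limma), to a mean signal of 1407 ± 192 (SD) from 2465 ± 169. In these whole-seedling pools fewer phloem-associated cells and less transcript per cell cannot be told apart. SWEET12, the partner of SWEET11 in phloem loading, has no probe set assigned to it alone in the table and was not analysed here.

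SWEET14 (AT4G25010), which carries sucrose and also gibberellin in anthers, read 114 and 109 in control and 51.3 and 46.4 in induced seedlings. The arrays of each group lay close together and the groups did not overlap. It fell by 0.82 ± 0.17 (95% interval -1.25 to -0.40, adjusted p = 0.0214, limma). The mean signal was 2.28-fold higher in control seedlings, and with a pseudocount of 1 the log2 change was -1.17. Its close relative SWEET13 (AT5G50800), which carries the same substrates, read 171 and 279 in control and 260 and 249 in induced seedlings. Both induced values of SWEET13 lay between the control values, and its change of 0.19 ± 0.22 (95% interval -0.35 to 0.73) did not pass. The intervals of SWEET13 and SWEET14 do not overlap, but a difference between their changes was not tested.

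SWEET10, a sugar facilitator linked to flowering time at the shoot apex, lies next to SWEET13 in the gene table. Its signal stayed below the pseudocount throughout, between 1.68 and 18.9, and its change of -0.08 ± 0.25 did not pass. SWEET9, which secretes nectar sugar in flowers, read between 1.34 and 35.3, and its change of -0.05 ± 0.34 did not pass either. Control replicate 1 was the highest array for SWEET6, SWEET7 and SWEET9, and it was the only array above the pseudocount for SWEET7 and SWEET9. The direction of SWEET9 turned under 6 of 11 other settings.

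**Figure D2:**
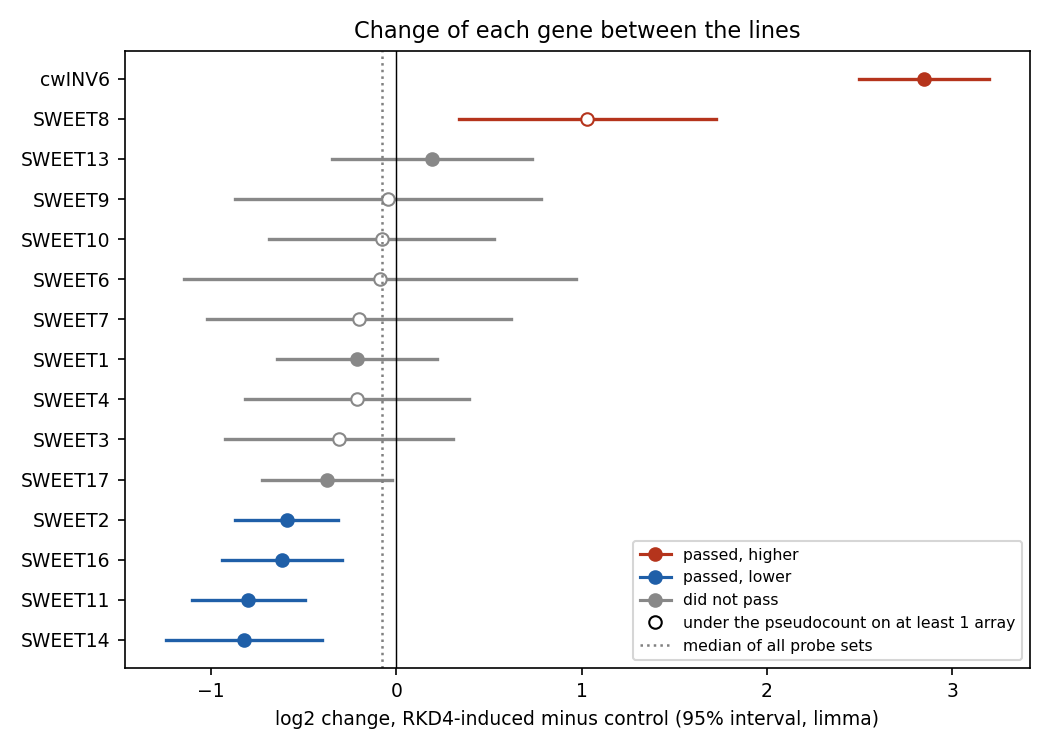
Log2 change of each gene (RKD4-induced minus control) with its 95% interval from limma, in order of size. Red and blue mark genes that passed an adjusted p of 0.05, open circles mark genes under the pseudocount on at least 1 array, and the dotted line is the median of all probe sets at -0.0757. The change of cwINV6 at 2.85 lies apart from all SWEET genes, and the intervals of weak genes are the widest.

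In clade IV, SWEET16 fell and SWEET17 did not pass. SWEET16 (AT3G16690), a vacuolar sugar facilitator, read 371 and 419 in control and 253 and 240 in induced seedlings. Both induced pools were lower, and it fell by 0.62 ± 0.13 (95% interval -0.94 to -0.29, adjusted p = 0.0230, limma). SWEET17 (AT4G15920), which exports fructose from the vacuole of leaf and root cells, read 1290 and 1442 in control and 922 and 1185 in induced seedlings. Its groups did not overlap either, but the induced pools lay farther apart. The change of SWEET17 was -0.37 ± 0.14 (95% interval -0.72 to -0.02) with an adjusted p of 0.120. With the replicate number as a block the log2 change stays the same by construction, and the adjusted p was 0.0277. Without RKD4-induced replicate 1 the change was -0.20 with an adjusted p of 0.398, and with single arrays left out it lay between -0.55 and -0.20.

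The TMT genes encode antiporters that pump glucose and sucrose into the vacuole, and they were set beside the vacuolar SWEET genes after their values were seen. TMT1 read 1475 and 1235 in control and 832 and 710 in induced seedlings, so both induced pools were lower. It fell by 0.79 ± 0.13 (95% interval -1.11 to -0.46, adjusted p = 0.0106, limma). TMT2 read 260 and 295 in control and 161 and 200 in induced seedlings. Its groups did not overlap, and its change of -0.54 ± 0.16 missed the threshold with an adjusted p of 0.0630. It passed with the filter on weak probe sets (adjusted p 0.0224) and with the replicate block (0.0347). TMT3 read between 7.55 and 39.1, and its change of -0.11 ± 0.30 did not pass. As a share of the control mean, the mean induced signal was 65.1% for SWEET2, 62.3% for SWEET16 and 56.9% for TMT1, which passed. It was 77.1% for SWEET17, 65.2% for TMT2 and 91.5% for TMT3, which did not pass.

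**Figure D3:**
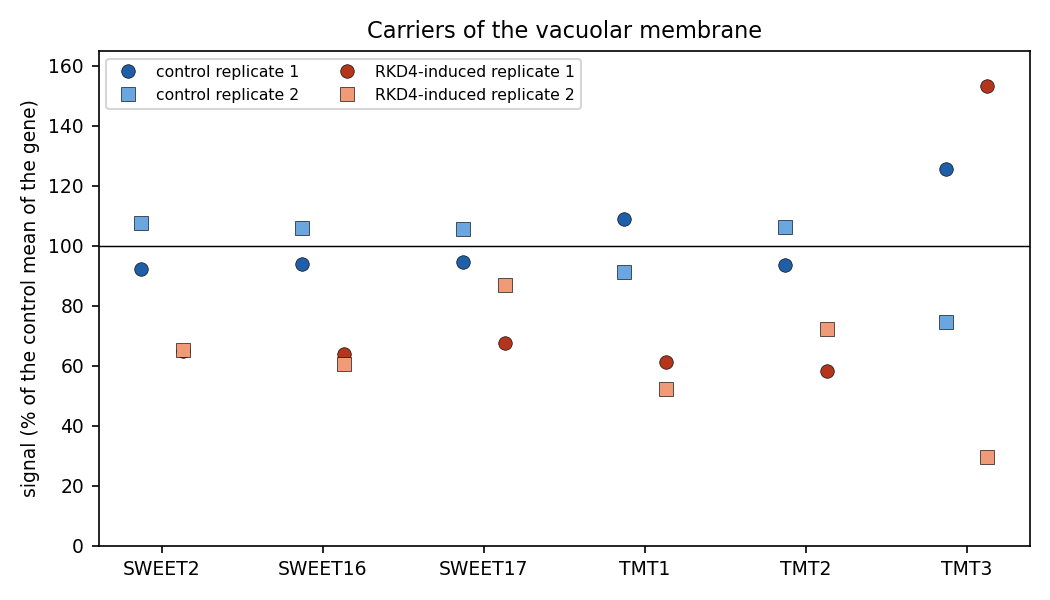
Signal of carriers of the vacuolar membrane on each array as a percentage of the gene's own control mean, with control arrays in blue and RKD4-induced arrays in red. The induced arrays of SWEET2, SWEET16, SWEET17, TMT1 and TMT2 lie between 52.4% and 86.7%, below every control array. Those of the weak gene TMT3 lie at 153% and 29.6%. SWEET17, TMT2 and TMT3 did not pass an adjusted p of 0.05. Full separation of control from induced arrays, in either direction, was common, at 61.4% of the probe sets tested.

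SWEET family genes that carry another symbol in the annotation were no members by the rule. AtVEX1 (AT5G62850), a synonym of SWEET5 named for the vegetative cell of pollen, read 7.36 and 3.34 in control and 20.5 and 20.5 in induced seedlings. All its values lay under the pseudocount. The groups did not overlap, with the induced arrays higher, and its change of 0.49 ± 0.15 had an adjusted p of 0.0702. SAG29 (AT5G13170), a synonym of SWEET15, is a sucrose facilitator of senescing leaves and seeds. It read 91.1 and 93.3 against 119 and 107, and its change of 0.22 ± 0.17 did not pass.

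A list covered 44 other genes of sugar synthesis, cleavage, storage and transport. Of these, 11 had a probe set assigned to them alone, 6 of them with a symbol. None was called higher and 2 of the 11 were called lower, TMT1 and AT5G17010, against 10% and 11.8% of all probe sets. The latter has no symbol in the tables used. It read 798 and 822 in control and 556 and 543 in induced seedlings, and it fell by 0.53 ± 0.10 (adjusted p = 0.0155, limma). The median log2 change of the 11 genes was -0.10. ATSPS4F, a sucrose phosphate synthase gene, read between 1739 and 2204 and its change of -0.04 ± 0.14 did not pass. The transporter-like genes SFP1 (0.33 ± 0.10, adjusted p 0.0573) and SFP2 (-0.08 ± 0.24) did not pass, although the groups of SFP1 did not overlap, with 1429 and 1539 against 1848 and 1897. SFP1 passed with median centring (0.0443), with the filter (0.0468) and with the replicate block (0.0347). The other 4 loci lay between -0.21 and 0.14 and did not pass. None of the sucrose synthase, hexokinase and invertase inhibitor genes of the list has a probe set assigned to it alone in the table.

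The seedling label was set against markers of shoot and root hair, of which 4 of 5 and 2 of 2 were measured. The photosynthesis genes RCA, LHCB4.1 and PSAN read between 16242 and 41794 on all arrays. Their changes of -0.15 ± 0.17, -0.13 ± 0.13 and -0.27 ± 0.12 did not pass. The groups of LHCB4.1 and PSAN did not overlap, with the induced arrays lower, and those of RCA overlapped. Among all probe sets 61.4% did not overlap. PORB, a chlorophyll synthesis gene, fell by 0.54 ± 0.11 (adjusted p = 0.0202, limma). The root hair expansin genes EXPA7 and EXPA18 fell by 0.83 ± 0.15 and 0.71 ± 0.15 (adjusted p = 0.0126 and 0.0205, limma). All 3 passed, and 11.8% of all probe sets were called lower. These 3 falls are of similar size to those of the SWEET genes, and their part in the changes of SWEET2, SWEET11, SWEET14 and SWEET16 was not tested. Neither of the phloem markers APL and SEOR1 has a probe set assigned to it alone in the table.

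With single arrays left out, cwINV6 alone of the 6 genes kept its call in each of the 4 fits. SWEET14 and SWEET16 lost theirs in 4 of 4, with adjusted p from 0.0819 to 0.114 and from 0.0701 to 0.117. SWEET2 kept its call only without control replicate 1, with adjusted p from 0.0428 to 0.0885 over the 4 fits. SWEET11 lost its call without control replicate 2 (0.0647) and without RKD4-induced replicate 1 (0.0532). TMT1 lost its call without control replicate 1 (0.0689) and without RKD4-induced replicate 2 (0.0748), and AT5G17010 in all 4 fits (0.0731 to 0.0875). Log2 changes lay between -0.70 and -0.49 for SWEET2, between -0.94 and -0.66 for SWEET11, between -0.87 and -0.78 for SWEET14 and between -0.70 and -0.54 for SWEET16. A fit with 3 arrays has 1 residual degree of freedom and assumes that the lone array varies like the other group, so a lost call need not mean dependence on that array. Under the other 8 settings all 4 falls passed an adjusted p of 0.05. In the fit as reported, SWEET11 alone among these 4 genes had an adjusted p under 0.01.

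**Figure D4:**
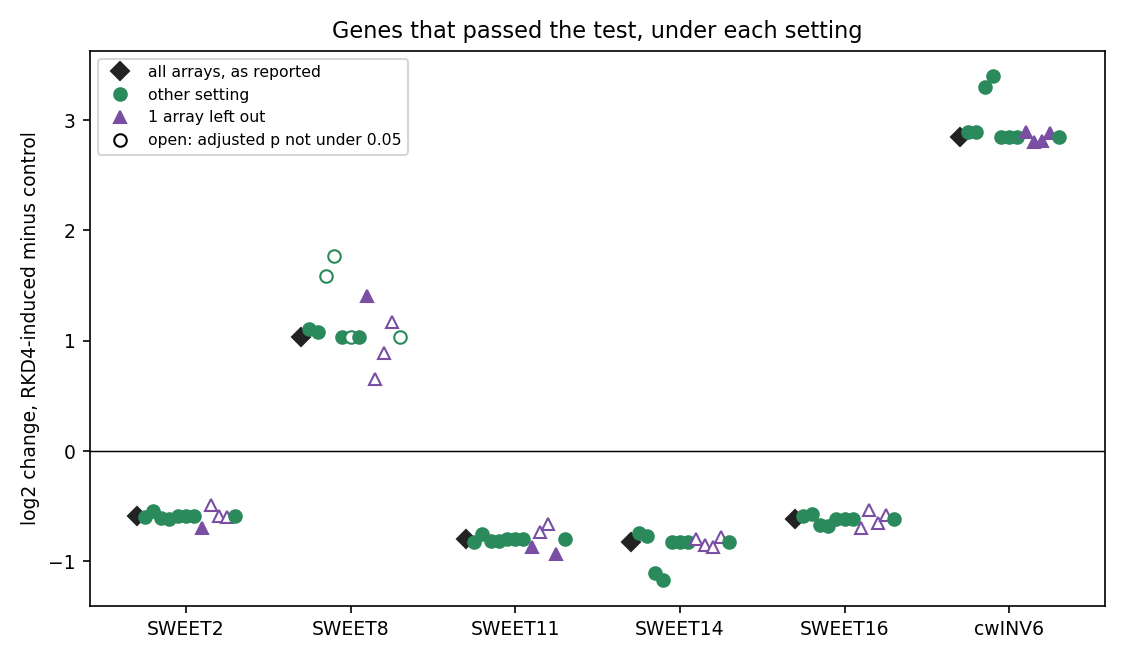
Log2 change of the 6 genes that passed the test, as reported (diamonds), under 8 other settings (circles) and with 1 array left out (triangles). Open symbols mark an adjusted p not under 0.05. No value changes sign, all cwINV6 symbols are filled, and 7 of the 12 alternatives of SWEET8 are open.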

How the data were processed

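Per the labels' protocols, biotin-labelled cRNA was made from total RNA of each seedling pool and read on 1 array. The submitters' processing notes name GCOS without a version. The authors deposited linear intensity values, with probes already summarised to 1 signal for each probe set. Their 2% trimmed mean was 500.05 on every array, so this scaling was kept. Median signals lay between 175 and 185, and the number of arrays limits the precision.

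After 64 AFFX control probe sets were left out, log2(signal + 32.4) was computed for 22746 probe sets and fitted by group with limma 3.58.1 in R 4.3.3 (variance trend, two-sided, Benjamini-Hochberg over all probe sets). Residual degrees of freedom were 2 and the moderation added 4.12. No detection calls were used. With 2 against 2 arrays the smallest exact two-sided permutation p is 0.333, and no such test was made. The design text calls the pools independent. The p-values rest on the spread of these pools alone, with each variance moderated over all probe sets. The fit was also run on data simulated from its own variances, which cannot check its assumptions on these arrays. All members are named, together with genes of the sugar list that passed, those with a symbol, and family genes listed under a synonym. Members, lists and tests were chosen with earlier results of these data known. No genome build is given for the array, so no coordinates are printed. Alternatives were other scalings, pseudocounts, removal of probe sets whose mean log2 signal lay under the 30th percentile, a fit without variance trend, a replicate block, an adjusted p of 0.01, leaving out arrays and, added after the data were seen, 1 probe set per gene.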

Additional observations from a re-analysis of the deposited data

How the results depend on the processing

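The restriction to 1 probe set per gene was chosen after seeing the data. The count of 2 genes called higher was 1 with either other pseudocount, without the variance trend, with 1 probe set per gene and at an adjusted p under 0.01, and 1 to 2 with single arrays left out, the gene lost being SWEET8 each time. The count of 4 genes called lower was 1 at an adjusted p under 0.01 and 0 to 2 with single arrays left out. All probe sets called numbered 2088 at an adjusted p under 0.01, 2538 with 1 probe set per gene, which tests fewer, and 1835 to 2223 with single arrays left out, against 4954. The sugar list had 4 calls with the filter, where 6238 of 15922 probe sets passed, and with the replicate block, and 0 to 1 with single arrays left out. Same-numbered arrays deviated with a correlation of 0.0807 and the labels do not say that they share a batch, so no pairing was assumed. The replicate block raised the count of calls from 4954 to 6301, and among the 15 genes it changed the call of SWEET17 alone. Median centring moved the share of rises among all calls from 46.0% to 53.0%. Signs turned among genes that did not pass: SWEET9 lay at 0.000507 with quantile normalization, 0.00430 with median centring, 0.18 and 0.62 with pseudocounts at the 10th percentile and of 1, and SWEET7 at 0.00721 with a pseudocount of 1. ATSPS4F lay at 0.00847 with median centring. With single arrays left out, SWEET3 ranged from -0.65 to 0.0335, SWEET4 from -0.55 to 0.12, SWEET6 from -0.65 to 0.47, SWEET7 from -0.69 to 0.29, SWEET9 from -0.55 to 0.46, SWEET10 from -0.38 to 0.21, SWEET13 from -0.12 to 0.50, ATSPS4F from -0.21 to 0.13, TMT3 from -0.53 to 0.31 and SFP2 from -0.41 to 0.24. The cause was not tested. A change of probe set was not run, since each gene has 1 probe set of its own. Weak signal limits the 7 SWEET genes under the pseudocount.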

Other observations

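A hand-written list of the STP family of hexose symporters held 4 loci that have a probe set but no symbol in the tables used. Their place in that family rests on the hand-written list alone, so they were not counted as members. One of them, AT5G61520, read 75.5 and 95.6 in control and 503 and 433 in RKD4-induced seedlings, so both induced pools were above both control pools. It rose by 2.09 ± 0.17 (95% interval 1.68 to 2.49, n = 2 arrays per group, adjusted p = 0.000889, limma). The call held under all 12 other settings, with log2 changes between 1.96 and 2.44. The other 3 loci, AT1G34580, AT5G26250 and AT3G19940, lay at -0.33 ± 0.23, -0.12 ± 0.23 and 0.03 ± 0.13 and did not pass. AT3G19940 read between 1.34 and 2.92, under the pseudocount on all 4 arrays, and AT5G26250 was above it on 1 array. The values of these 2 loci therefore say little on change. Of all probe sets, 10% were called higher and 11.8% lower.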
